A study of Mus musculus with 12 samples.

Results

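The genes described here are 10 genes of the endothelial junction and cell surface: Cdh5, Pecam1, Esam, Cldn5, Icam2, Emcn, Cd34, Cd93, Plvap and Egfl7. They were chosen by gene name, with earlier results of the same data known, and all 10 were found among the 41128 genes of the deposited tables. All 10 also passed the filter on low counts and were among the 15347 genes tested. RNA had been sequenced from haemogenic endothelium of the mouse, a vessel lining that can give rise to blood cells, made from embryonic stem cells of an Ainv18 derivative. Ainv18 is a line built so that doxycycline switches on a gene placed at a chosen site, and the study is about SOX7, a transcription factor of endothelial cells. FLK1+ cells were isolated from embryoid bodies at day 3.5 and kept for 48 h in liquid blast culture. The Dox cells then received 1 µg/ml doxycycline for 6, 12 or 24 h, and the NoDox cells were harvested at the same hours without it. Each of the 6 groups had 2 libraries, all from the one stem cell line, and the labels do not say whether the 2 came from separate cultures. A p-value here therefore stands for the spread of these libraries, which may be technical. No library of cells given doxycycline without an inducible gene is among the 12, so an effect of the drug itself cannot be told apart from that of the induced gene.

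Endothelial cells are held together at adherens junctions by VE-cadherin, the product of Cdh5, and at tight junctions by claudin-5 and its partners, while PECAM1 and ESAM are immunoglobulin-type adhesion molecules at the same contacts. The free surface carries sialomucins such as CD34 and endomucin, the leukocyte ligand ICAM2 and the C-type lectin-like receptor CD93, and PLVAP forms the diaphragms of caveolae and fenestrae. When blood cells emerge from haemogenic endothelium, they let go of their neighbours and lose the endothelial junction programme, whereas CD34 is also found on early blood progenitors.

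Total counts per library were between 13485804 and 35250074, and every group had 1 deeper library, of at least 27516106, and 1 shallower library, of at most 15429846. Endothelial genes were expressed in every library: Kdr was at 55.4 to 84.3 RPKM (a level scaled for gene length and depth), Tie1 at 37.2 to 50.7 and Erg at 14.7 to 21.4. The pan-leukocyte gene Ptprc stayed between 0.106 and 0.803 RPKM. The mesenchymal collagen gene Col1a1 was at 150.4 to 381.2 RPKM, above all of these. The values thus do not show that the cells were endothelial alone, and summed blood and mesenchyme markers are given below. Sox7 was at 326 and 314 CPM (counts scaled to the size of the library) in Dox cells at 6 h, against 77.9 and 81.7 in NoDox cells. At 24 h it was at 337 and 331 CPM in Dox cells, against 52.5 and 52.1 CPM in NoDox cells. Counts do not separate the induced copy from the endogenous gene.

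The genes lie on 7 chromosomes of the GRCm38 build, as the tables give them. Cdh5 (ENSMUSG00000031871) spans chr8:104101625-104144502 on the plus strand and Plvap (ENSMUSG00000034845) chr8:71497754-71511769 on the minus strand. Cd34 (ENSMUSG00000016494) spans chr1:194938821-194961292 on the plus strand. Egfl7 (ENSMUSG00000026921) and Cd93 (ENSMUSG00000027435) are both on chromosome 2, at chr2:26580014-26593120 on the plus strand and chr2:148436640-148443563 on the minus strand. Icam2 (ENSMUSG00000001029) at chr11:106377656-106388075 and Pecam1 (ENSMUSG00000020717) at chr11:106654217-106750628 are near neighbours on the minus strand. Esam (ENSMUSG00000001946) is at chr9:37528078-37538319, Cldn5 (ENSMUSG00000041378) at chr16:18776847-18778260 and Emcn (ENSMUSG00000054690) at chr3:137341067-137432185, all on the plus strand. Plvap overlaps Gtpbp3 and Egfl7 overlaps Agpat2, each on the opposite strand. The strand setting of the counting is not given in the sources used here, so reads of these pairs may have been shared, and Dox effects on Gtpbp3 (log2 fold changes of -0.01, -0.06 and -0.03 at 6, 12 and 24 h) and Agpat2 (-0.08, -0.02 and -0.12) were not called.

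The promoters of 4 of the genes, Cd34, Egfl7, Emcn and Cldn5, had an entry in RefSeq's GRCm38.p6 table, which gives the 250 bases before a start and the 50 after it, and Cdh5, Pecam1, Esam, Icam2, Cd93 and Plvap had none. The windows of Cd34, Egfl7 and Emcn are printed 5′ to 3′ on the plus strand so that they can be set beside each other. At 12 and 24 h Cd34 was called lower in Dox than in NoDox cells and Egfl7 higher, while Emcn was not called. Capitals mark each match, on either strand, to letters that are known to be preferred by families of factors: ACAAT or ACAAAG by SOX factors, AGGAAG by ETS factors, AAACA by FOX factors, AGATAA by GATA factors and TGTGGT by RUNX factors, besides TATAAA of the TATA box.
Cd34, chr1:194938571-194938870: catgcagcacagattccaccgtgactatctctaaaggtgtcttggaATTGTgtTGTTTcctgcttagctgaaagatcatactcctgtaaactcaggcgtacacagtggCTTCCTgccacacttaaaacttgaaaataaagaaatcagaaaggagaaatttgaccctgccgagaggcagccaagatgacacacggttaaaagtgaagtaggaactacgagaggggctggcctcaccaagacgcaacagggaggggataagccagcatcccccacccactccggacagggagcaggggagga
Egfl7, first start, chr2:26580833-26581132: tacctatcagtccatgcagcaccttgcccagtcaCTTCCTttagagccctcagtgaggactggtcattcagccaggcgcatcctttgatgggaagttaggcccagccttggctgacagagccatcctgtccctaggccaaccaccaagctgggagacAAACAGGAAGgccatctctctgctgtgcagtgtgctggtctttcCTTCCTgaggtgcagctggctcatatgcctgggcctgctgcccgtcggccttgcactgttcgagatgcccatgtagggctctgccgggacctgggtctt
Egfl7, second start, chr2:26583615-26583914: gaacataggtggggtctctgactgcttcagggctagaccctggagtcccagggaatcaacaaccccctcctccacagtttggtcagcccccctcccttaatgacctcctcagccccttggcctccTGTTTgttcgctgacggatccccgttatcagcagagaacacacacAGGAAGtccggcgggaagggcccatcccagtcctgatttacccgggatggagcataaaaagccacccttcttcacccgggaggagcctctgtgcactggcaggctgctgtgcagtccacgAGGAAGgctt
Emcn, chr3:137340828-137341127: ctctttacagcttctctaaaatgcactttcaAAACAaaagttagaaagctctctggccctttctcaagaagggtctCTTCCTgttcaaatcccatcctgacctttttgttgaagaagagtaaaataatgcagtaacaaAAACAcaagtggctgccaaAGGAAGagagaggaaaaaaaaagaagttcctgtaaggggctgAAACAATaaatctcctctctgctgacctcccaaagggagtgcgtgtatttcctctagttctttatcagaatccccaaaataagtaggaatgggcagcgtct

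The Cd34 window held 3 matches, all on the strand opposite to the gene: ACAAT at position -204 from the start, AAACA at -197 and AGGAAG at -142. The first Egfl7 window held 4, among them AAACA at -93, which shares letters with AGGAAG at -89 in 1 run of capitals. Its second window held AGGAAG at -80 and at 41 and AAACA at -125, the last on the opposite strand. The Emcn window held 6, where AAACA at -51 and ACAAT at -49 share letters. A further Egfl7 window held 1 match, ACAAAG at -234, and the Cldn5 window held 0. These letters are common: of all 32851 RefSeq windows of the same length, 31% held ACAAT, 18.7% ACAAAG, 35.4% AGGAAG, 50.5% AAACA, 11.2% AGATAA, 16.8% TGTGGT and 13.6% TATAAA. A match is a description of the letters and not a bound site.

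Egfl7 also hosts a microRNA, miR-126a, at chr2:26591357-26591429, which is known from mice for guarding vessel integrity. Its mature 3p arm in RefSeq is shown because its host gene was called higher in Dox than in NoDox cells at 12 and 24 h. Capitals mark the seed, bases 2 to 8.
mmu-miR-126a-3p, chr2:26591402-26591423, plus strand: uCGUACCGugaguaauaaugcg
The row of the hairpin is listed at 0 in all 12 libraries, so only the host gene is described further.

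Most of these genes were higher with doxycycline by 24 h, by 1.20 to 1.43-fold, and Cd34 was lower. Called means an adjusted p under 0.05 in the quasi-likelihood test of edgeR, adjusted over all tested genes by the method of Benjamini and Hochberg, and log2 fold changes are Dox over NoDox with their standard error (SE). At 6 h, 2 of the 10 genes were called higher and 0 lower, where 0.821% of all tested genes were called higher and 0.717% lower. At 12 h, 5 were called higher and 2 lower, against 3.26% and 3.51% of all genes, and at 24 h, 6 were called higher and 1 lower, against 4.50% and 6.52% of all genes. The median log2 fold change of the 10 genes was 0.13, 0.19 and 0.27 at the 3 hours, while that of all genes was 0.01, -0.01 and -0.01. Beside the 0 genes called lower at 6 h, 1 gene, Cd34, had an unadjusted p under 0.05, and DESeq2 also called 0. Each of the libraries was measured in bulk, so fewer cells of a type and less RNA per cell cannot be told apart in any of these values.

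**Figure D1:**
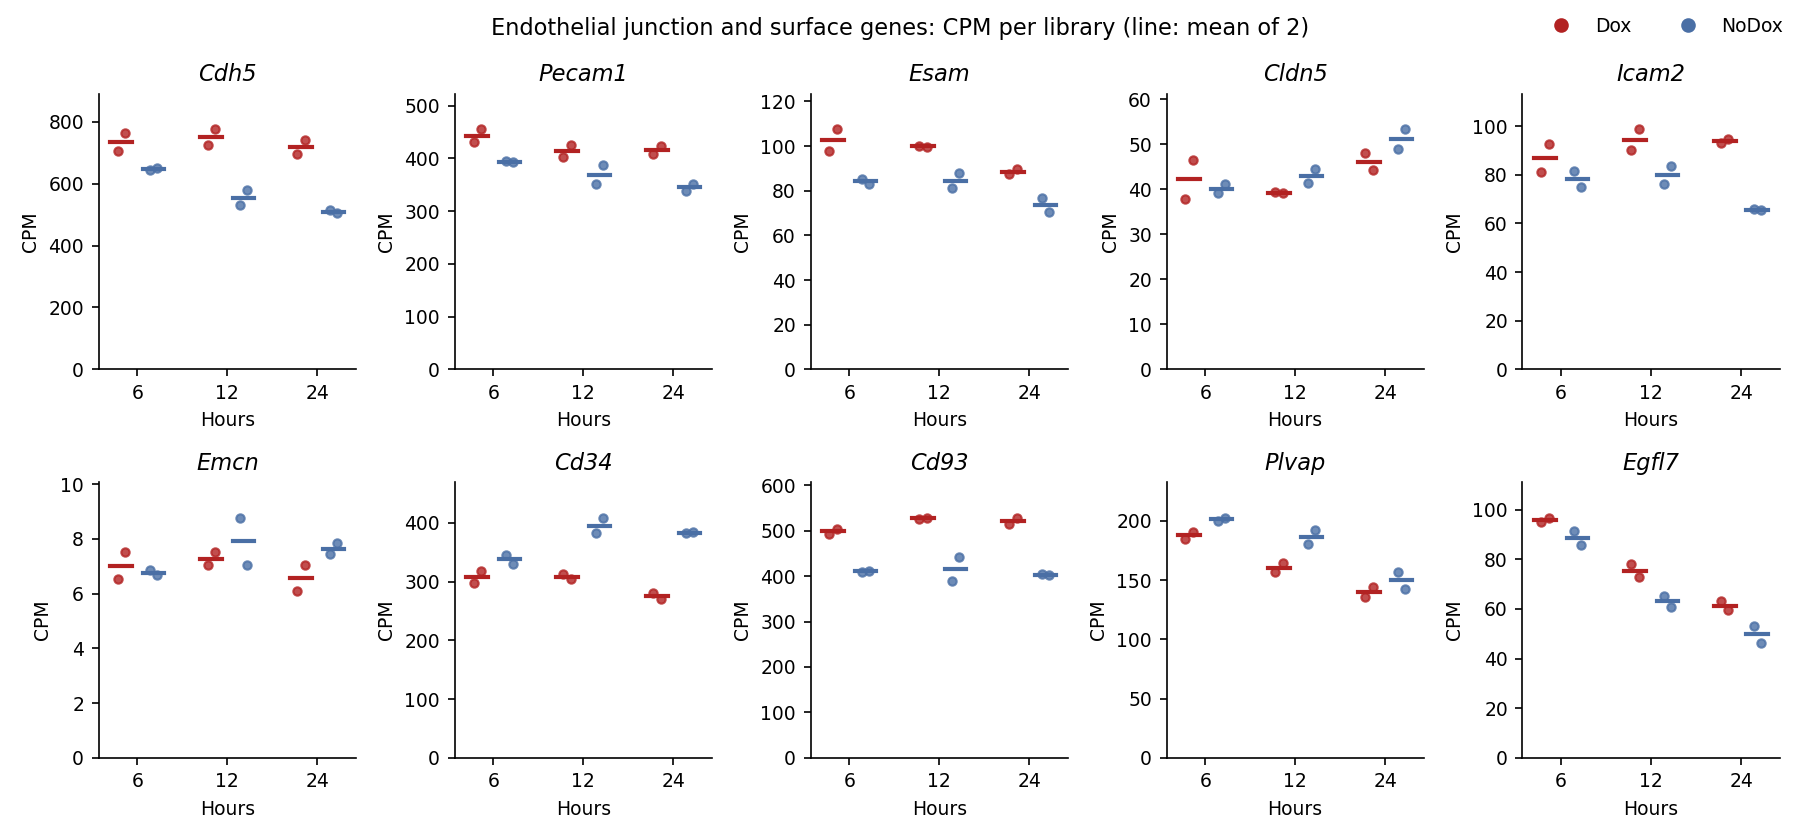
CPM of each of the 10 genes (y axes, from 0) in every library by hour (x axes), with Dox points left of NoDox points and a line at the mean of the 2 libraries of a group. Cdh5 stays between 696 and 775 CPM in all 6 Dox libraries, while its NoDox libraries at 24 h are at 516 and 504 CPM; Cd34 shows the opposite order of the groups.

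**Figure D2:**
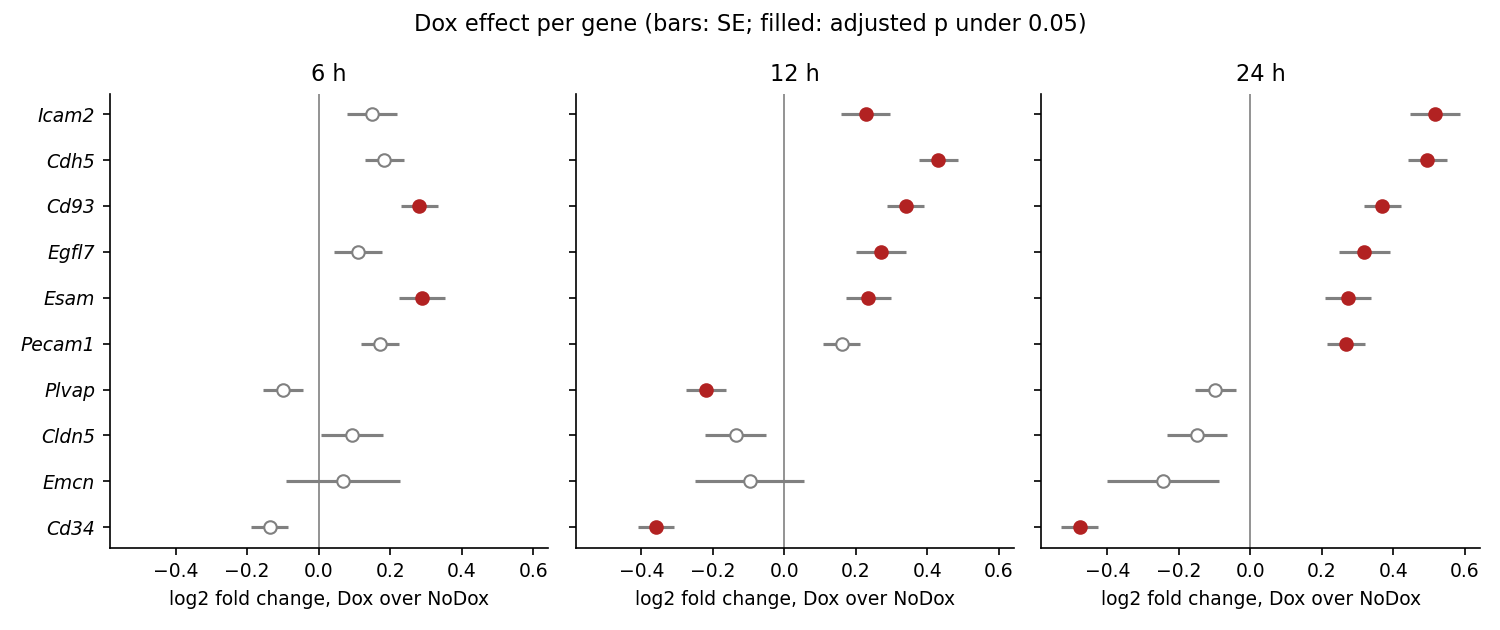
Log2 fold change of each gene, Dox over NoDox (x axes), at 6, 12 and 24 h, with bars for the SE of the fit and filled points where the adjusted p was under 0.05. At 24 h, 6 genes are filled to the right of 0 and Cd34 alone, at -0.48, is filled to its left.

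Among the junction genes, Cdh5, the adherens junction cadherin, had the largest fold changes at 12 and 24 h. It was at 706 and 764 CPM in Dox cells at 6 h, against 645 and 649.6 CPM in NoDox cells. At 12 h it was at 723 and 775 CPM in Dox cells, against 529 and 581 CPM in NoDox cells, and at 24 h at 696 and 741 CPM in Dox cells, against 516 and 504 CPM in NoDox cells. The groups did not overlap at any hour, and the distance between them was widest at 24 h. The log2 fold change was 0.18 ± 0.05 at 6 h (edgeR, adjusted p = 0.091), which was called only when no filter on low counts was used (adjusted p = 0.026). Cdh5 was higher in Dox than in NoDox cells by 0.43 ± 0.05 at 12 h (edgeR, adjusted p = 2.4e-06) and by 0.50 ± 0.05 at 24 h (adjusted p = 5.7e-08), that is 1.35-fold and 1.41-fold.

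Pecam1, the adhesion molecule also called CD31, was at 408.5 and 423 CPM in Dox cells at 24 h, against 338 and 351 CPM in NoDox cells. The groups stood apart at each of the 3 hours, but the gene was called only at 24 h, when its log2 fold change was 0.27 ± 0.05 (edgeR, adjusted p = 0.00052). At 6 h the log2 fold change was 0.17 ± 0.05 (adjusted p = 0.12) and at 12 h 0.16 ± 0.05 (adjusted p = 0.064). The 12 h value was past the threshold in 4 alternatives. These were the filter of 1 CPM in 4 libraries, the replicate number as a block (edgeR, adjusted p = 0.038), DESeq2 (0.044) and leaving out NoDox 12 h replicate 2.

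Esam, which encodes an immunoglobulin-type molecule of endothelial tight junctions, was called higher at every hour. It was at 97.8 and 107 CPM in Dox cells at 6 h, against 85.4 and 82.9 CPM in NoDox cells. At 24 h the values of both groups lay lower, with 87.3 and 89.5 CPM in Dox cells, against 76.6 and 70.2 CPM in NoDox cells. The log2 fold changes were 0.29 ± 0.06 at 6 h (edgeR, adjusted p = 0.011), 0.23 ± 0.06 at 12 h (0.02) and 0.27 ± 0.06 at 24 h (0.0037). The calls were thin: at 6 h that of Esam was lost without NoDox 6 h replicate 1 (adjusted p = 0.1), NoDox 6 h replicate 2 (0.16) or Dox 6 h replicate 2 (0.38). At 12 h it was lost without NoDox 12 h replicate 1 (0.17), Dox 12 h replicate 1 (0.12) or Dox 12 h replicate 2 (0.063), and at 24 h without NoDox 24 h replicate 2 (0.13).

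Cldn5, the claudin that seals endothelial tight junctions, was not called at any hour. At 24 h it was at 47.9 and 44.3 CPM in Dox cells, against 49.0 and 53.3 CPM in NoDox cells. The log2 fold changes were 0.09 ± 0.09 at 6 h, -0.14 ± 0.08 at 12 h and -0.15 ± 0.08 at 24 h (edgeR, adjusted p = 0.81, 0.39 and 0.32). Its 2 groups overlapped at 6 h, and at 12 and 24 h both Dox libraries were below both NoDox libraries.

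Of the surface adhesion genes, Icam2, a ligand of leukocyte integrins, had the largest fold change of the 10 at 24 h, within the SE of that of Cdh5. It was at 93.2 and 94.7 CPM in Dox cells at that hour, against 65.8 and 65.5 CPM in NoDox cells, a log2 fold change of 0.52 ± 0.07 (edgeR, adjusted p = 2.6e-06). At 12 h it was at 90.2 and 98.7 CPM in Dox cells, against 76.2 and 83.7 CPM in NoDox cells (0.23 ± 0.07, adjusted p = 0.041). The 2 groups of Icam2 overlapped at 6 h (0.15 ± 0.07, adjusted p = 0.45) and stood apart later. Its 12 h call was lost with DESeq2 (adjusted p = 0.058) and without NoDox 12 h replicate 1 (0.27) or Dox 12 h replicate 2 (0.26).

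Cd93, the C-type lectin-like receptor whose ligand is the matrix protein multimerin-2, was called higher at every hour. It was at 493 and 504 CPM in Dox cells at 6 h, against 409.5 and 411 CPM in NoDox cells. At 12 h it was at 527 and 528 CPM in Dox cells, against 389.8 and 443 CPM in NoDox cells, and at 24 h at 515 and 528 CPM in Dox cells, against 404 and 403 CPM in NoDox cells. No Dox library was below any NoDox library of its hour. The log2 fold changes of 0.28 ± 0.05, 0.34 ± 0.05 and 0.37 ± 0.05 were all called (edgeR, adjusted p = 0.0017, 5.6e-05 and 4.9e-06). The 6 h call was lost without NoDox 6 h replicate 1 (adjusted p = 0.053) or Dox 6 h replicate 2 (0.055).

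Emcn, the sialomucin of venous and capillary endothelium, was the lowest of the 10 genes, with 90 to 258 reads in a library. It was at 6.11 and 7.03 CPM in Dox cells at 24 h, against 7.44 and 7.83 CPM in NoDox cells. The log2 fold changes were 0.07 ± 0.16, -0.10 ± 0.15 and -0.24 ± 0.16 at the 3 hours (edgeR, adjusted p = 0.96, 0.79 and 0.41). With an SE of that size, a change as small as those of Esam or Pecam1 was not detectable for Emcn at this depth.

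Cd34, the sialomucin shared by endothelium and early blood progenitors, moved the other way. It was at 297 and 317 CPM in Dox cells at 6 h, against 346 and 329.8 CPM in NoDox cells. At 12 h it was at 312 and 305 CPM in Dox cells, against 382 and 408 CPM in NoDox cells, and at 24 h at 279.7 and 271 CPM in Dox cells, against 382 and 385 CPM in NoDox cells. Every Dox library was below every NoDox library of its hour. The log2 fold change, Dox over NoDox, was -0.14 ± 0.05 at 6 h (edgeR, adjusted p = 0.26), -0.36 ± 0.05 at 12 h (adjusted p = 1.7e-05) and -0.48 ± 0.05 at 24 h (adjusted p = 4.1e-08), where the Dox level was 0.718 of the NoDox level. Both later calls held in each of the 14 alternative fits.

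Plvap, the diaphragm protein, was called lower in Dox cells at 12 h, and its Dox effect was not called as different between any of the hours. At 12 h it was at 157 and 164 CPM in Dox cells, against 181 and 192 CPM in NoDox cells, and the log2 fold change of -0.22 ± 0.06 was called (edgeR, adjusted p = 0.014). That call was lost without Dox 12 h replicate 1 (-0.17, adjusted p = 0.23) or NoDox 12 h replicate 2 (-0.17, adjusted p = 0.17). At 24 h Plvap was at 135 and 144 CPM in Dox cells, against 157 and 143 CPM in NoDox cells, so that the groups overlapped (-0.10 ± 0.06, adjusted p = 0.35). At 6 h they stood apart by little, with 184 and 191 CPM in Dox cells, against 200.2 and 202 CPM in NoDox cells (-0.10 ± 0.06, adjusted p = 0.58).

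Egfl7, a secreted factor of endothelial cells that acts on vessel tube formation, was at 78.1 and 72.8 CPM in Dox cells at 12 h, against 65.2 and 60.9 CPM in NoDox cells. At 24 h it was at 63.0 and 59.5 CPM in Dox cells, against 53.1 and 46.4 CPM in NoDox cells. The log2 fold changes were 0.11 ± 0.07 at 6 h, 0.27 ± 0.07 at 12 h and 0.32 ± 0.07 at 24 h (edgeR, adjusted p = 0.65, 0.015 and 0.0025). The Dox libraries were above the NoDox libraries at each hour. The 12 h call was lost without Dox 12 h replicate 1 (adjusted p = 0.22) or NoDox 12 h replicate 2 (0.2), and the 24 h call without NoDox 24 h replicate 2 (0.16).

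With 2 libraries a group, many genes have groups that do not overlap. At 6 h, 5 of the 10 genes had both Dox libraries above both NoDox libraries and 2 had them below, against 19.7% of all tested genes in each direction. At 12 h these numbers were 6 and 3, against 23.2% and 25.7% of all genes, and at 24 h again 6 and 3, against 23.5% and 26.0%. The counts below are thus near the share over all genes and say nothing about these genes. The same sign was found within the deeper and within the shallower library of each group for every call: at 24 h Cdh5 differed by 0.47 and 0.52, Icam2 by 0.51 and 0.53, Cd93 by 0.35 and 0.39, and Cd34 by -0.46 and -0.50, all as log2 CPM of Dox minus NoDox. Egfl7 at 24 h was further apart, with 0.44 in the deeper pair and 0.16 in the shallower. At 12 h Icam2 differed by 0.11 and 0.37 and Plvap by -0.29 and -0.14. Depth class is not a batch that the labels name.

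Levels were also compared between hours within each condition. In Dox cells, Cdh5 moved by 0.03 ± 0.05 on the log2 scale between 6 and 12 h and by -0.06 ± 0.05 between 12 and 24 h, neither called (edgeR, adjusted p = 0.79 and 0.53). In NoDox cells it fell by 0.22 ± 0.05 between 6 and 12 h (adjusted p = 0.0096), with a further -0.12 ± 0.05 between 12 and 24 h that was not called (adjusted p = 0.098). For Cd34 in Dox cells the first step was 0.01 ± 0.05, not called, followed by a fall of -0.16 ± 0.05 between 12 and 24 h (adjusted p = 0.03). In NoDox cells Cd34 was 0.23 ± 0.05 higher at 12 h than at 6 h (adjusted p = 0.0045). Harvest and hour cannot be told apart in these steps.

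Of the other genes of the group, Egfl7 and Plvap fell with time in both conditions. Egfl7 fell in all 4 steps: by 0.34 ± 0.07 and 0.30 ± 0.07 on the log2 scale in Dox cells, and by 0.50 ± 0.07 and 0.35 ± 0.07 in NoDox cells. Plvap fell by 0.23 ± 0.06 and 0.20 ± 0.06 in Dox cells, and in NoDox cells by 0.32 ± 0.06 between 12 and 24 h, after -0.11 ± 0.06 between 6 and 12 h, which was not called. Between 12 and 24 h in Dox cells, the step was -0.003 ± 0.068 for Icam2, -0.18 ± 0.06 for Esam and 0.24 ± 0.08 for Cldn5, none of them called. In NoDox cells over the same hours, Icam2 fell by 0.29 ± 0.07 and Esam by 0.22 ± 0.06, and Cldn5 rose by 0.25 ± 0.08. The steps of Esam and of Cldn5 were thus close in both conditions. The Dox effect at 24 h minus that at 12 h was 0.04 ± 0.09 for Esam, -0.01 ± 0.12 for Cldn5 and 0.29 ± 0.10 for Icam2, none called.

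In all, 2 of the 10 genes were called between 6 and 12 h in Dox cells and 3 in NoDox cells, where 18.9% and 7.46% of all tested genes were. Between 12 and 24 h, 3 were called in Dox cells and 5 in NoDox cells, where 13.8% and 22.4% of all genes were. These counts rest on few libraries. The count of 3 in NoDox cells between 6 and 12 h was 1 without NoDox 6 h replicate 2, and that of 5 was 2 without NoDox 12 h replicate 2 or NoDox 24 h replicate 2. In Dox cells, the count of 2 was 1 without Dox 12 h replicate 1 or Dox 6 h replicate 2, and that of 3 was 1 without Dox 12 h replicate 1 or replicate 2.

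Whether the Dox effect itself differed between hours was tested as an interaction. Between 6 and 24 h, 3 of the 10 genes were called, where 2.08% of all tested genes were: the effect of Dox was larger at 24 h for Cdh5 by 0.31 ± 0.08 (edgeR, adjusted p = 0.023) and for Icam2 by 0.37 ± 0.10 (adjusted p = 0.047), and more negative for Cd34 by -0.34 ± 0.07 (adjusted p = 0.0065). The other 7 were not called, with differences from -0.31 for Emcn to 0.21 for Egfl7, and for Cd93 the difference was 0.09 ± 0.07 (adjusted p = 0.76). From 6 to 12 h and from 12 to 24 h edgeR called 0 of the 10, as did DESeq2, where 0.417% and 1.21% of all genes were called; 2 genes (Cdh5 and Cd34) and 1 gene (Icam2) had an unadjusted p under 0.05.

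The interaction calls depended on single libraries. The count of 3 was 0 without NoDox 24 h replicate 2 or without Dox 24 h replicate 2, and 1 without Dox 6 h replicate 1, NoDox 24 h replicate 1 or NoDox 6 h replicate 2. The Icam2 call was the weakest, lost in 7 of 15 alternatives, among them DESeq2 (adjusted p = 0.064) and each of the 4 libraries of 24 h left out (0.065 to 0.15), as well as NoDox 6 h replicate 1 (0.23) and Dox 6 h replicate 1 (0.18). The Cdh5 call was lost in 5, without NoDox 24 h replicate 1 (0.077), NoDox 24 h replicate 2 (0.11), Dox 24 h replicate 2 (0.13), Dox 6 h replicate 1 (0.095) or NoDox 6 h replicate 2 (0.053). For Cd34, lost in 4, the adjusted p was 0.067 without NoDox 24 h replicate 2, 0.063 without Dox 24 h replicate 2, 0.088 without NoDox 6 h replicate 2 and 0.098 without Dox 6 h replicate 2. The difference itself kept its sign in every alternative fit, from 0.28 to 0.39 for Cdh5, from 0.31 to 0.49 for Icam2 and from -0.36 to -0.28 for Cd34.

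Levels per gene length, in RPKM, put Cdh5 and Cd34 at the top of the group. In all 6 Dox libraries Cdh5 ranked first and Cd34 second, as in both NoDox libraries of 6 h, while in all 4 NoDox libraries of 12 and 24 h Cd34 ranked first. Cdh5 was at 159 and 169 RPKM in Dox cells at 24 h, against 119 and 116 RPKM in NoDox cells. Cd34 was at 97.3 and 93.8 RPKM in Dox cells at that hour, against 134 and 135 RPKM in NoDox cells. The RPKM of Plvap lay between 61.3 and 92.4, that of Cd93 between 54.2 and 73.4 and that of Pecam1 between 49.96 and 66.3, so these 3 lay close together and their ranges over the 12 libraries overlapped. Icam2 (31.6 to 48.1 RPKM), Esam (22.5 to 34.0) and Cldn5 (24.3 to 34.6) came next and overlapped as well. Egfl7 (11.9 to 24.5 RPKM) and Emcn (1.03 to 1.5) ranked ninth and last in every library.

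Set beside Cd34 within a library, Cdh5 had 1.64 and 1.80 times the RPKM of Cd34 in Dox cells at 24 h, against 0.888 and 0.860 times in NoDox cells. At 12 h the ratios were 1.52 and 1.67 in Dox cells, against 0.910 and 0.935 in NoDox cells, and at 6 h 1.56 and 1.58 in Dox cells, against 1.23 and 1.30 in NoDox cells. The Dox ratios were thus above every NoDox ratio, and the NoDox ratios crossed below 1 after 6 h. Beside Plvap, the RPKM of Cdh5 was 2.60 and 2.61 times as high in Dox cells at 24 h, against 1.67 and 1.78 times in NoDox cells. Ratios to Cd34 were also higher in Dox cells for other genes called higher. At 24 h the RPKM ratio of Cd93 to Cd34 was 0.722 and 0.765 in Dox cells, against 0.415 and 0.411 in NoDox cells. That of Icam2 was 0.459 and 0.481 in Dox cells, against 0.237 and 0.234 in NoDox cells. Genes that were not called higher had higher ratios to Cd34 in Dox cells as well. At 24 h the ratio of Cldn5 to Cd34 was 0.318 and 0.303 in Dox cells, against 0.238 and 0.256 in NoDox cells. That of Plvap was 0.630 and 0.691 in Dox cells, against 0.533 and 0.482 in NoDox cells. Since Cd34 itself was lower in Dox than in NoDox cells, the ratios to it add nothing to the fold changes of the single genes. No test is given for these ratios, since Cd34 and Plvap were set apart with their direction known.

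**Figure D3:**
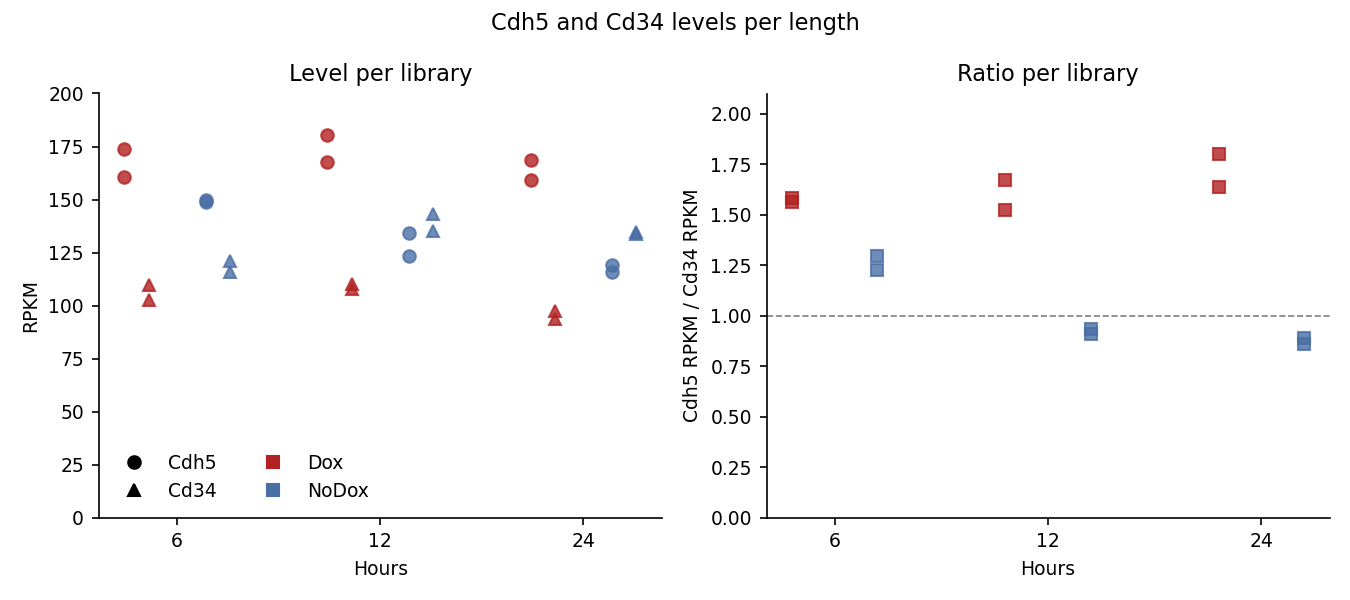
RPKM of Cdh5 (circles) and Cd34 (triangles) in every library by hour (left panel), and the ratio of Cdh5 RPKM to Cd34 RPKM in the same libraries (right panel, dashed line at 1), with Dox left of NoDox at each hour. The 6 Dox ratios lie between 1.52 and 1.80, and the 4 NoDox ratios of 12 and 24 h lie below 1.

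Across the 12 libraries, the genes whose log2 CPM ran most like that of Cdh5, among 9431 genes whose log2 CPM averaged 3 or more, were Dpysl3 (Pearson r = 0.98), Vegfa (0.97), Hdac7 (0.97), Asap2 (0.96) and Gna12 (0.95). Pecam1 was sixth, also at 0.95, and Icam2, Esam and Cd93 were at ranks 54, 71 and 76 (r from 0.87 to 0.89). Egfl7 was at rank 606, and Cd34 was among the least alike of all, at rank 9353 with r = -0.85. The genes most like Cd34 were Lims1 (r = 0.93), Mctp1 (0.93), the lymphatic and early endothelial receptor gene Lyve1 (0.91), the lymphoid factor gene Ikzf1 (0.91) and Mpo (0.90), the peroxidase gene of myeloid cells, while Plvap was at rank 1649 with r = 0.32. These values describe 12 libraries that fall into 6 groups and share treatment, hour and culture, and no p is attached to them. Emcn was below the minimum level and has no rank.

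Lyve1 and Mpo were lower in Dox cells by more than any of the 10 genes. At 24 h the log2 fold change was -1.35 ± 0.10 for Lyve1, -1.60 ± 0.12 for Mpo and -1.09 ± 0.09 for Ikzf1, while that of Lims1 was -0.30 ± 0.05. Of the genes most like Cdh5, Vegfa, the endothelial growth factor gene, was higher in Dox cells by 0.67 ± 0.06 at 24 h and Dpysl3 by 0.71 ± 0.06. All of these genes were picked by their correlation with Cdh5 or Cd34 over the same Dox and NoDox libraries. A Dox difference in the same direction was thus largely built into the choice and is no further evidence.

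Markers of blood cells, Mpo among them, were compared between Dox and NoDox cells as well. Of a list of 22 blood markers, 4 were called lower at 6 h, 5 at 12 h and 20 at 24 h. The myeloid gene Lyz2 was the 1 called higher at 6 and at 12 h, with 0 at 24 h. Of all tested genes, 0.717%, 3.51% and 6.52% were called lower at the 3 hours, and 0.821%, 3.26% and 4.50% higher. The summed level of the 22 blood markers was 551 to 575 CPM in Dox libraries at 24 h, against 1196 to 1234 CPM in NoDox libraries. At 6 h it was 439.6 to 473 CPM in Dox libraries, against 567 to 573 CPM in NoDox libraries, and none of the 22 was at 0 in any group. The part of these cells in the effects on Cd34, Cdh5 and the other genes was not tested. Mesenchyme and smooth muscle markers summed to 9440 to 9488 CPM in Dox libraries at 24 h, against 10160 to 10410 CPM in NoDox libraries, with 7 of 12 tested genes called lower and 0 higher. Cardiac markers summed to 51.7 to 56.5 CPM in Dox libraries at 24 h, against 47.5 to 48.1 CPM in NoDox libraries, and 2 of 8 tested genes, the myosin genes Myh6 and Myh7, were called higher (log2 fold changes of 1.93 ± 0.38 and 1.99 ± 0.20, edgeR, adjusted p = 0.00048 and 1.7e-08) and 0 lower. Endoderm and epithelial markers summed to 853 to 860 CPM in Dox libraries at that hour, against 947 to 977 CPM in NoDox libraries. Of 7 tested genes, 2, the keratin genes Krt8 (-0.21 ± 0.05) and Krt18 (-0.16 ± 0.05), were called lower and 0 higher. That list includes Sox17, which is also in the list of endothelial transcription factors below, so its sum is not of endoderm and epithelium alone. Pluripotency markers summed to 3.68 to 4.74 CPM in Dox libraries, against 3.43 to 5.16 CPM in NoDox libraries. These lists, like those that follow, were chosen with earlier results known.

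Among the partners of the adherens junction, 5 of 15 genes were called higher at 24 h and 0 lower, after 3 at 12 h and 0 at 6 h. Of all tested genes, 4.50% were called higher and 6.52% lower at 24 h, and 3.26% higher at 12 h. The median log2 fold change of the 15 genes at 24 h was 0.16. Ptprb, which encodes the phosphatase VE-PTP that binds VE-cadherin, was 0.44 ± 0.06 higher (edgeR, adjusted p = 1.3e-06). Heg1, a receptor that anchors the KRIT1 complex at junctions, was 0.24 ± 0.05 higher, as was Rasip1, a Rap1 effector of vessel lumen formation, with 0.24 ± 0.06. The afadin gene Mllt4 was 0.22 ± 0.05 higher. N-cadherin, encoded by Cdh2, was the last of the 5, and the catenin genes Ctnna1, Ctnnb1 and Ctnnd1 were not called at any hour. Jup, the plakoglobin gene, was called at 12 h alone, with 0.21 ± 0.05 (adjusted p = 0.018), and stood at 0.08 ± 0.05 at 24 h (adjusted p = 0.44).

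Tight junction partners were called higher in 3 of 16 tested cases at 24 h, 1 at 12 h and 0 at 6 h. At no hour was any called lower, and the median was 0.07 at 24 h. Of all tested genes, 4.50% were called higher at 24 h and 3.26% at 12 h. Among the partners called higher at 24 h were genes of cytoplasmic scaffold proteins: Pard3 was higher by 0.33 ± 0.07 and Tjp1 (ZO-1) by 0.17 ± 0.05 (edgeR, adjusted p = 0.02 for Tjp1). Magi1 stood at 0.21 ± 0.08 and was not called. No tested claudin gene of the list was called, as was the case for Cldn5, and Cldn3 and Cldn15 were not tested. The SE at 24 h was 0.26 for Cldn1, 0.23 for Cldn4, 0.24 for Cldn6 and 0.33 for Cldn7. With SEs of that size, a change as small as that of Tjp1 was not detectable for these genes. Cldn12 stood at -0.07 ± 0.07.

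Other endothelial surface genes went both ways. Of 29, 3 were called higher and 2 lower at 6 h, 3 and 7 at 12 h, and 6 and 3 at 24 h. Of all tested genes, 0.821% and 0.717% were called higher and lower at 6 h, 3.26% and 3.51% at 12 h, and 4.50% and 6.52% at 24 h. The median of the 29 was -0.01 at 24 h. The receptor genes Flt1 (0.33 ± 0.05), Tek (0.32 ± 0.06), Tie1 (0.28 ± 0.06) and S1pr1 (0.28 ± 0.06), the regulator gene Ecscr (0.48 ± 0.07) and the adhesion gene Vcam1 (0.47 ± 0.11) were higher at 24 h. The genes called lower were Lyve1, Icam1 and the tetraspanin gene Cd9.

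Caveola genes gave 1 call of 8 at 24 h, that of Ptrf, the gene of the coat protein cavin-1, which was 0.41 ± 0.05 higher (edgeR, adjusted p = 1.7e-06), while Plvap at the same sites was at -0.10 ± 0.06. Sdpr (-0.26 ± 0.14), Prkcdbp (-0.15 ± 0.12) and Ehd4 (-0.08 ± 0.05) were not called, and the median was -0.03. Since 4.50% of all tested genes were called higher at 24 h, 1 call of 8 says little about the list.

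Ligands and matrix partners of the 10 genes included 2 that were higher at 24 h and 3 that were lower, of 9 tested. Of all tested genes, 4.50% were called higher and 6.52% lower at that hour. Mmrn2, the multimerin-2 gene whose product binds CD93, was 0.28 ± 0.07 higher, and Cd38, known in humans as a PECAM1 ligand, was 0.52 ± 0.08 higher. The leukocyte genes Itgb2 (a chain of the integrin that binds ICAM2) and Selplg were lower, with log2 fold changes of -1.99 ± 0.20 and -1.82 ± 0.41. Both are genes of blood cells, whose markers were also lower at 24 h. The part of blood cells in the lower levels of Itgb2 and Selplg was not tested.

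Of 19 endothelial transcription factor genes tested, 6 were called higher and 4 lower at 24 h, with a median of 0.05. The shares of all tested genes at that hour were 4.50% higher and 6.52% lower. Ets1 (0.40 ± 0.05), Tcf4 (0.40 ± 0.05) and Gata2 (0.53 ± 0.09) were among those higher, and Mef2c (-0.50 ± 0.08), Tal1 (-0.33 ± 0.06), Klf2 (-0.30 ± 0.09) and Sox18, of the same SOX subfamily as SOX7 (-0.19 ± 0.06, adjusted p = 0.044), were lower.

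**Figure D4:**
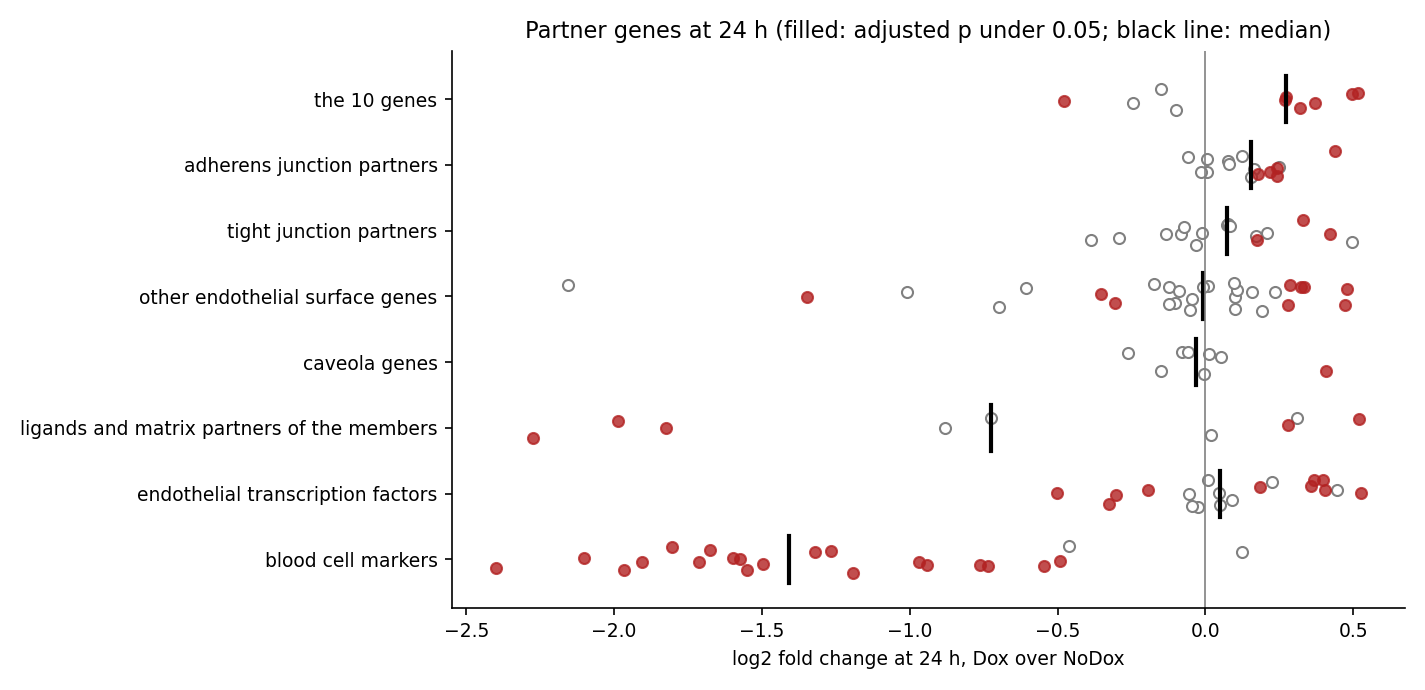
Log2 fold change at 24 h, Dox over NoDox (x axis), of the 10 genes and of the genes of each partner list and the blood markers (rows), with filled points where the adjusted p was under 0.05 and a black line at the median of a row. The median is 0.27 for the 10 genes and -1.41 for the blood cell markers.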

How the data were processed

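RNA-seq of 12 libraries was used. The authors deposited a table of raw read counts per gene and a table of RPKM for the same genes. Per the submitters' processing notes, bcl2fastq 2.16.0.10, Bowtie2 (version given there as 2.21), SAMtools 0.1.19 and R 3.1.0 with edgeR 3.8.5 were used on the GRCm38 build, and per the labels' protocols the library kit was strand-specific and reads were single. From the counts, library scaling (TMM), CPM and the tests were computed with edgeR 4.0.16: genes were kept by filterByExpr, 1 quasi-likelihood model with a mean for each of the 6 groups was fitted over all 12 libraries (6 residual degrees of freedom), and p-values were Benjamini-Hochberg adjusted over 15347 genes. The SE of a log2 fold change is its size divided by the square root of the F statistic. The deposited RPKM values were used only for levels compared between genes, and in limma 3.58.1. They used a library scaling within 1.13% of the one computed here. Alternatives were scaling by RLE or by the upper quartile, testing without a filter or with one of 1 CPM in 4 libraries, the replicate number as a block, DESeq2 1.42.0, limma-trend on log2(RPKM + 1) and log2(RPKM + 0.1), the libraries of 1 hour alone, each library left out, and, added after seeing the data, the depth class as a term. Leaving out a library leaves 1 in its group, which is then assumed to vary like the other groups. The tests were also run on simulated counts, but the outcome is not given here. No conclusion is drawn from that run about fold changes as small as those reported, or about differences of the Dox effect between hours.

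The 10 genes and all gene lists were chosen with earlier results of these data known. Beside the 10 genes and Sox7, the genes named are, per partner list, up to 4 by adjusted p at 24 h and those called against the list's median, and the 5 genes most correlated with Cdh5 and with Cd34. Gtpbp3, Agpat2, Mir126a, Icam1, Cd9, Cdh2, Jup, Lyz2, Myh6, Myh7, Krt8, Krt18 and the catenin genes were named after their values were seen. So were Sox17 and the claudin genes other than Cldn5. Genes of the partner lists that the rule names but the text does not are not reported here.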

Additional observations from a re-analysis of the deposited data

Results flagged for a closer look

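The Dox effect differed between 6 and 24 h for 3 of the 10 genes, by an interaction test within edgeR's quasi-likelihood model (Benjamini-Hochberg adjusted over all tested genes). For Cdh5 the effect at 24 h minus that at 6 h was 0.3112 on the log2 scale (adjusted p = 0.023), for Icam2 0.3653 (adjusted p = 0.047) and for Cd34 -0.3409 (adjusted p = 0.0065). For Cdh5 and Cd34 both Dox libraries were on one side of both NoDox libraries at 6 and at 24 h. For Icam2 this was so at 24 h but not at 6 h. Of all tested genes, 19.7% stood apart in each direction at 6 h, and 23.5% (higher) and 26.0% (lower) at 24 h. Groups that stand apart at an hour do not bear on a difference of the effect between hours. The 3 calls depended on single libraries, as given above.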

How the results depend on the processing

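For single genes, 33 results were refitted, in 465 alternatives in all: 412 kept their direction and their side of the threshold, 45 lost a call, 5 gained one and 3 turned sign. The 3 were of genes that were not called: over the left-out libraries Cldn5 at 6 h ran from -0.081 (without Dox 6 h replicate 2) to 0.20, Emcn at 6 h from -0.061 (without Dox 6 h replicate 2) to 0.14, and Emcn at 12 h from -0.28 to 0.042 (without NoDox 12 h replicate 1). At 24 h every call of the 10 genes held, except those of Esam and Egfl7 without NoDox 24 h replicate 2. Both limma-trend fits, on log2(RPKM + 1) and log2(RPKM + 0.1), gave fewer calls: of the 10 genes, 0 and 0 were higher at 6 h, 2 and 2 at 12 h, and 1 and 1 lower at 12 h. Beside the losses given per gene above, both fits lost the 6 h calls of Esam and Cd93. They also lost the 12 h calls of Esam, Icam2, Plvap and Egfl7. Over all genes these fits called 31 and 34 higher (126 in the edgeR fit) and 36 and 44 lower (110) at 6 h, 196 and 186 higher (500) and 169 and 168 lower (538) at 12 h, and 449 and 435 higher (690) at 24 h. With no filter 177 were lower at 6 h, and DESeq2 called 336 lower at 12 h. Leaving out each library in turn gave, of the 10 genes, 0 to 2 higher at 6 h, 3 to 5 higher and 1 to 2 lower at 12 h. Over all genes it gave 47 to 95 higher and 35 to 85 lower at 6 h, 228 to 389 and 195 to 365 at 12 h, and 392 to 724 and 618 to 773 at 24 h. Calls of the 24 h minus 6 h effect ran from 0 to 2, of time in NoDox cells from 1 to 2 (6 to 12 h) and 2 to 6 (12 to 24 h), and of time in Dox cells from 1 to 2 in each step. A left-out library leaves fewer samples; the cause of the other shifts was not tested. Same-numbered libraries of an hour did not deviate together (correlations of -0.03, 0.05 and -0.01 over genes at 6, 12 and 24 h). The same-numbered Dox and NoDox libraries of an hour were always of opposite depth class, and the labels do not name shared cultures. This check thus cannot show whether the numbers pair them. With the replicate block 2, 6 and 6 of the 10 genes were higher at the 3 hours. Over all genes 133, 517 and 705 were then higher and 116, 554 and 1017 lower. Depth limits Emcn, with at most 258 reads in a library.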
